A study of Mus musculus with 12 samples.

Results

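Lysophosphatidic acid (LPA) is a small lipid mediator that acts through G protein-coupled receptors. The genes described here are those of the 6 mouse LPA receptors, Lpar1 to Lpar6, and Enpp2, which encodes autotaxin, so 7 of the 18211 genes in the deposited table. The family was chosen by a measured value, the level of Lpar1, which was lower by about 2-fold in tumors treated with PB-020 and anti-PD-1 together than in vehicle tumors. That contrast is therefore described and not tested for these genes.

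The 12 libraries came from MC38 tumors, 3 in each of 4 groups, and MC38 is a mouse colorectal adenocarcinoma cell line. Cells were placed under the skin of female C57BL/6 mice bought at 5 weeks of age, and the mice were split into groups on day 7. CK mice received vehicle, PB-020 mice received this IGF-1R inhibitor by gavage at 50 mg/kg each day, anti-PD-1 mice received 200 μg of antibody on days 9, 12, 15 and 18, and PB-020/anti-PD-1 mice (the combination) received both. The host was syngeneic with the cells, so reads from MC38 cells and from the stroma and immune cells of the mouse map to the same genes. Whether CK mice received a control antibody, or anti-PD-1 mice the oral vehicle, is not given in the sources used here.

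Autotaxin is a secreted enzyme that removes choline from lysophosphatidylcholine and thereby makes LPA outside the cell, and lipid phosphate phosphatases at the cell surface break it down. LPA1, LPA2 and LPA3 belong to the Edg family of receptors, and LPA4, LPA5 and LPA6 are related to P2Y receptors. Through Gi, Gq and G12/13 proteins they can activate phospholipase C and PI3K, and in tumors the axis is known for effects on the motility of cancer cells, on fibroblasts and on lymphocyte trafficking.

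Each library held 16545394 to 17217035 expected counts (median 16927043). Levels are given in FPKM (sequenced fragments scaled by transcript length and by library size), which can be compared between genes. Changes are log2 differences between groups from edgeR's quasi-likelihood model of all 12 libraries, and a gene was called at a Benjamini-Hochberg adjusted p under 0.05 over 13563 genes tested. MC38 tumors held nearly no transcripts of colonic epithelial cells: the 7 markers of this type summed to 2.05 to 4.16 FPKM, most of it Cdh1, with Cdx2 at 0 in 10 tumors and Krt18 at 0 in 7. Among the libraries, anti-PD-1 tumor 1 stood apart, with 499 FPKM over 6 skeletal muscle markers against 9.12 to 53.0 in the other tumors, and with the highest macrophage marker sum (666.5 FPKM). CK tumor 3 had 388 FPKM over 4 neutrophil markers and 197 FPKM over 5 adipocyte markers, far above the other tumors.

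On GRCm38.p6, Lpar1 lies on the minus strand at chr4:58435252-58554027, Lpar2 at chr8:69822565-69831102, Lpar3 at chr3:146220961-146286214, Lpar4 at chrX:106920625-106933899 and Lpar5 at chr6:125067844-125086129, these 4 on the plus strand. Lpar6 at chr14:73237891-73240358 on the plus strand lies within Rb1 (chr14:73192858-73325951, minus strand), and Enpp2 occupies chr15:54838901-54952789 on the minus strand. Promoter windows of 250 bases before an annotated start site were taken from RefSeq on the same build, and 6 of the 7 genes matched. Shown are windows of Lpar1, the receptor gene with the changed level, at the outermost and the innermost of its 3 start sites in this table, and of Lpar6, the receptor gene of comparable level whose values stayed close between groups. The annotated gene body of Lpar1 begins further upstream than these 3 sites. All are written 5′ to 3′ on the strand of the gene. Capitals mark matches to 6 motifs searched on both strands, namely the GC box GGGCGG, the TATA box TATAAA, the TEAD motif GGAATG, the AP-1 motif TGANTCA, the interferon-gamma element GAS as TTCNNNGAA, and the interferon element ISRE as 2 copies of GAAA spaced by 2 bases.
Lpar1 outer start, chr4:58553492-58553741: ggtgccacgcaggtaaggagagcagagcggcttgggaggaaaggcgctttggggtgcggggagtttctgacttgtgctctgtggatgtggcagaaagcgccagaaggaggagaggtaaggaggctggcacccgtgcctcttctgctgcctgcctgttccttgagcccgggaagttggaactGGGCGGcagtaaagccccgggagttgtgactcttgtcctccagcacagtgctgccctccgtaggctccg
Lpar1 inner start, chr4:58499404-58499653: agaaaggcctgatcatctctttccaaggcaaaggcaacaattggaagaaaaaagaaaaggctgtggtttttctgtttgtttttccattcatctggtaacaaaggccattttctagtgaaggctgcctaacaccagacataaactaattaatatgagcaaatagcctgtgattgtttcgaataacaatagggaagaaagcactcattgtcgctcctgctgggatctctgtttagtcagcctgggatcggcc
Lpar6, chr14:73237641-73237890: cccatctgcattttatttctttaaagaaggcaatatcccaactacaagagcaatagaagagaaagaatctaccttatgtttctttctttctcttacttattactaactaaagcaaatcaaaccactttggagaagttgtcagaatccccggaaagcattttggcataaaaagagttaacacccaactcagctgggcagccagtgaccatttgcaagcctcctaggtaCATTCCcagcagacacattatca

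The outer Lpar1 window was 62.0% G or C and held 1 GC box. The inner Lpar1 window was 41.6% G or C and held none of the 6 motifs, and an intermediate start at chr4:58553293 had a window that overlaps the outer one, with 70.0% G or C and 1 GC box. The Lpar6 window was 39.2% G or C and held 1 TEAD match, read on the opposite strand. Among all 32817 windows of this length the median was 52.4% G or C, the GC box was present in 32.7%, the TATA box in 12.4%, the TEAD motif in 12.6%, AP-1 in 6.8%, GAS in 7.0% and ISRE in 3.0%. These matches describe letters only, and the deposited values, which are per gene, do not tell which start was used.

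Lpar1 encodes LPA1, the receptor with the widest known expression and a well-studied role in fibroblasts. In CK tumors Lpar1 stood at 8.16, 11.48 and 8.43 FPKM, and in PB-020 tumors at 7.92, 7.21 and 9.14 FPKM. In anti-PD-1 tumors it stood at 4.74, 5.61 and 3.97 FPKM, and in combination tumors at 3.91, 4.27 and 4.56 FPKM. All 6 tumors that received the antibody, alone or with PB-020, thus lay below all 6 that did not, while CK and PB-020 tumors overlapped with each other, as did anti-PD-1 and combination tumors. Of all genes tested, 4.6% had every antibody-treated tumor below every other tumor, and for Lpar1 the pattern is only described, since CK and combination values chose the family. Group means were 9.36 ± 1.84, 8.09 ± 0.976, 4.77 ± 0.821 and 4.25 ± 0.326 FPKM (SD, n = 3) in this order. In bulk tumors, fewer cells of a type and less RNA per cell cannot be told apart. The paper reports smaller MC38 tumors with the combination than with each treatment alone. It also lists mostly lower final volumes with anti-PD-1 than in CK. The part of tumor size in these levels was not tested.

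**Figure D1:**
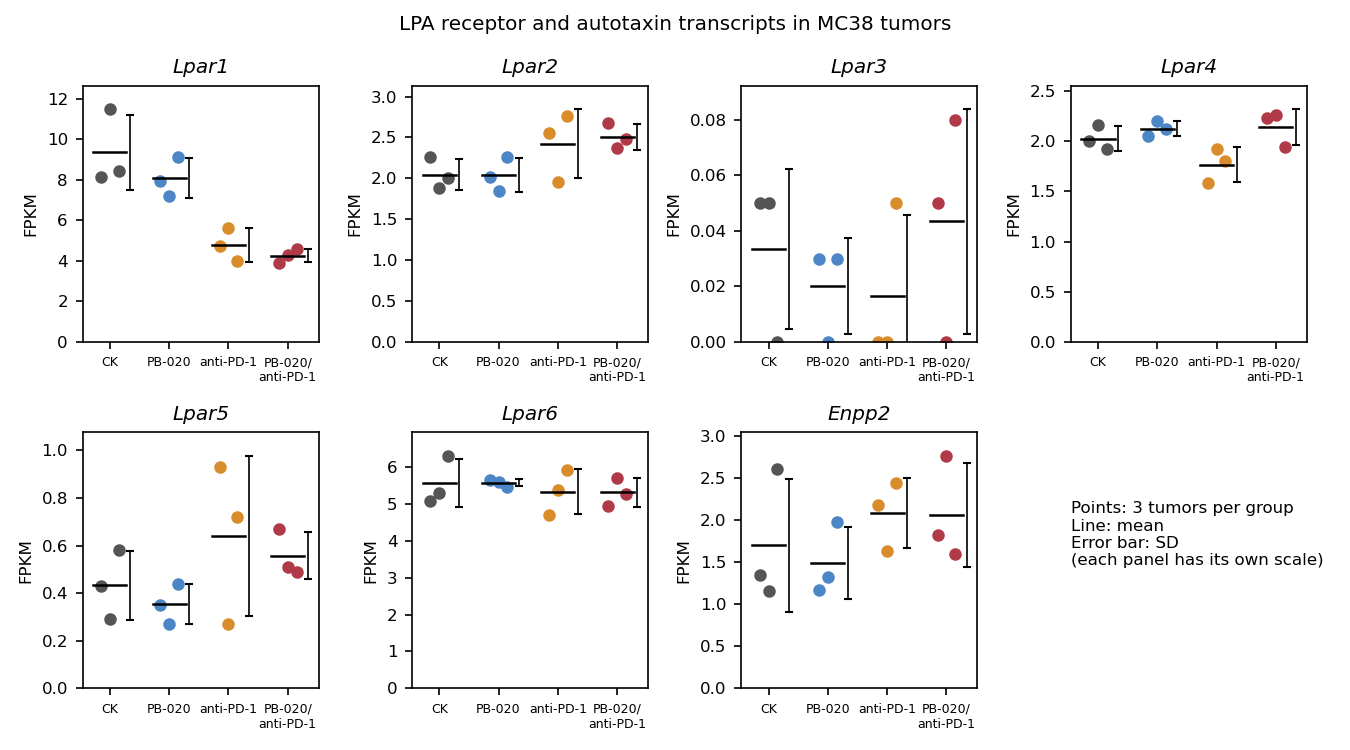
FPKM of each of the 7 genes in each tumor (points), with the mean (line) and SD (bar) of the 3 tumors of a group, each panel on its own linear scale from 0. Lpar1 lies between 7.21 and 11.48 FPKM in CK and PB-020 tumors and between 3.91 and 5.61 FPKM in anti-PD-1 and combination tumors, whereas Lpar6 lies between 4.71 and 6.31 FPKM throughout.

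Lpar1 fell with anti-PD-1 alone against CK, by 0.94 on the log2 scale (SE 0.15, 95% CI −1.27 to −0.62, 1.92-fold lower, edgeR adjusted p = 0.0067). This test shares its CK tumors with the contrast by which the family was chosen, so it is not independent of that choice. Among the 6 members tested, Lpar1 was the 1 called, whereas 8.26% of all genes tested were called in this contrast, 4.08% lowered and 4.18% raised. At the thresholds of the study's methods (fold over 1.5, unadjusted p under 0.05), Lpar1 was again the 1 member past them, with 7.18% of all genes. Genes with all 3 anti-PD-1 tumors below all 3 CK tumors made up 17.2% of those tested. The call was lost (adjusted p = 0.0574, change −0.94) when the model held the tumors of these groups alone. Without anti-PD-1 tumor 1, which stood apart in muscle transcripts, the change was −0.93 with an adjusted p of 0.016.

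In the combination, Lpar1 was 1.12 lower on the log2 scale than in CK (SE 0.15, 95% CI −1.45 to −0.80, 2.18-fold lower), the value that chose the family. Of all genes tested, 17.9% were called in this contrast, 9.6% lowered and 8.35% raised, and 22.4% had all combination tumors below all CK tumors. Across the alternatives computed, this difference ranged from −1.20 to −0.95. Against the single agents Lpar1 is again only described, since the combination tumors took part in the choice. It was 0.93 lower than in PB-020 tumors (95% CI −1.26 to −0.60), without overlap (15.7% of genes tested lay wholly below). It differed from anti-PD-1 tumors by −0.18 (95% CI −0.51 to 0.16). The interaction, that is the combination minus both single-agent effects on the log2 scale, was 0.01 for Lpar1 (95% CI −0.45 to 0.47).

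With PB-020 alone, the difference of Lpar1 from CK was −0.19 (SE 0.15, 95% CI −0.51 to 0.12, edgeR adjusted p = 0.90). The CK tumors of this test also took part in the choice of the family, so it is not independent of that choice. The edgeR model called no member in this contrast, and none of them reached an unadjusted p under 0.05 or the thresholds of the methods, which 0.56% of all genes passed. Over all genes tested edgeR called 0 (0%), with 741 (5.46%) at an unadjusted p under 0.05, and DESeq2 called 6.

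Anti-PD-1 against PB-020 is the comparison whose tumors took no part in the choice. The spread in the model was still estimated from all 12 libraries, which include the tumors that did. Lpar1 was lower in all 3 anti-PD-1 tumors than in all 3 PB-020 tumors, as were 11.9% of all genes tested. The difference was −0.75 (SE 0.15, 95% CI −1.08 to −0.43, 1.69-fold lower, unadjusted p = 0.000225), and the adjusted p of 0.0686 did not pass the threshold. Few genes were called in this contrast at all, 26 of 13563 (0.192%), and 5.71% were past the thresholds of the methods, Lpar1 among them. Of 20 alternatives, 4 called Lpar1 here: DESeq2 (adjusted p = 0.00172), no filter on low counts (adjusted p = 0.050), the model without CK tumor 2 (adjusted p = 0.0395) and the model without anti-PD-1 tumor 2 (adjusted p = 0.00899). The model that held only the tumors of these groups did not call Lpar1 (edgeR adjusted p = 0.153, change −0.75). Over all 20 alternatives the adjusted p ranged from 0.00172 to 0.230, and the change ranged from −0.89 to −0.64.

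**Figure D2:**
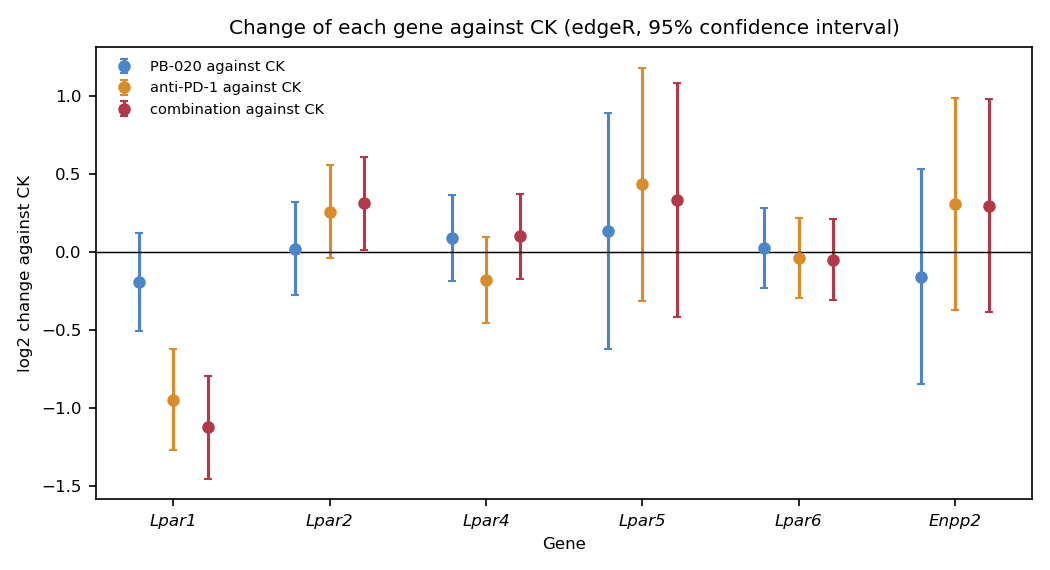
Log2 change against CK of the 6 members that passed the filter on low counts, from the edgeR model, for PB-020, anti-PD-1 and the combination (points), with 95% confidence intervals (bars) and the line of no change at 0. Lpar1 lies at −0.94 with anti-PD-1 and −1.12 with the combination, and the other members lie between −0.18 and 0.44. Intervals of these other members include 0 with PB-020 and with anti-PD-1. Those of the combination are descriptive and are not read as a test, since this contrast chose the family.

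Lpar2 encodes LPA2, a receptor found on lymphocytes and epithelial cells. It stood at 2.26, 1.88 and 2.0 FPKM in CK tumors and at 2.02, 1.85 and 2.26 FPKM in PB-020 tumors. In anti-PD-1 tumors it stood at 2.56, 1.95 and 2.76 FPKM, and in combination tumors at 2.68, 2.37 and 2.48 FPKM. In FPKM, all 3 combination tumors lay above all CK tumors and above all PB-020 tumors. Of all genes tested, 17.9% and 14.5% shared this pattern for these pairs. In the deposited TPM, which is scaled to a fixed total per library, combination tumor 2 (3.93) lay below CK tumor 1 (4.01). Anti-PD-1 tumor 2 lay within the CK range. The combination was 0.31 higher than CK (95% CI 0.02 to 0.61, described only). Against PB-020 the difference was 0.29 (unadjusted p = 0.0533, adjusted p = 0.23), and between anti-PD-1 and CK it was 0.26 (SE 0.14, adjusted p = 0.25). Neither passed the test.

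Lpar3, for LPA3, was at the edge of detection. It had 0 to 3 counts in each tumor, which is 0 to 0.08 FPKM, and 5 of 12 tumors had no count. A count of 0 allows up to 3 counts in a library. Lpar3 did not pass the filter and no fold is given.

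Lpar4 encodes LPA4, which can couple to Gs and is known from blood vessels. It stood at 2.0, 2.16 and 1.92 FPKM in CK tumors, at 2.05, 2.20 and 2.12 FPKM in PB-020 tumors, at 1.58, 1.92 and 1.80 FPKM in anti-PD-1 tumors and at 2.23, 2.26 and 1.94 FPKM in combination tumors. The anti-PD-1 tumors lay below the PB-020 tumors without overlap, as for 11.9% of all genes tested. They also lay below the combination tumors without overlap, by 0.02 FPKM at the nearest pair. In the deposited TPM the anti-PD-1 and combination tumors overlapped, with anti-PD-1 tumor 2 at 3.44 and combination tumor 3 at 3.43. Anti-PD-1 differed from PB-020 by −0.27 (SE 0.13, unadjusted p = 0.0545, adjusted p = 0.25). The combination differed from anti-PD-1 by 0.28 (95% CI 0.00 to 0.56, unadjusted p = 0.0468), and its adjusted p of 0.68 did not pass. For this last pair 5.12% of all genes had every combination tumor above every anti-PD-1 tumor, edgeR called 0 genes (0%) with 984 (7.26%) at an unadjusted p under 0.05, and DESeq2 called 1. Lpar4 was the 1 member at an unadjusted p under 0.05 there.

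Lpar5, for LPA5, a receptor described on CD8 T cells, was low and uneven, with 19 to 54 counts per tumor. It stood at 0.43, 0.29 and 0.58 FPKM in CK tumors, at 0.35, 0.27 and 0.44 FPKM in PB-020 tumors, at 0.93, 0.27 and 0.72 FPKM in anti-PD-1 tumors and at 0.67, 0.51 and 0.49 FPKM in combination tumors. The highest value belonged to anti-PD-1 tumor 1, the tumor with the most muscle, macrophage and T cell marker transcripts, and the lowest was shared by a PB-020 and an anti-PD-1 tumor. Combination tumors lay above PB-020 tumors in FPKM, as for 14.5% of all genes tested, while their counts overlapped (27 to 33 against 23 to 30). The other pairs of groups overlapped in FPKM. Anti-PD-1 differed from CK by 0.44 (SE 0.35, adjusted p = 0.45), and by −0.09 without tumor 1. For this gene 100 counts were worth 1.17 to 2.67 FPKM depending on the tumor, whereas for Lpar1 they were worth 1.77 to 1.86, so counts and FPKM of Lpar5 need not rank tumors alike. PB-020 against CK was 0.14 from counts and −0.08 on the log2(FPKM + 1) scale.

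Lpar6 encodes LPA6, known from human hair growth disorders, and was the most even of the family. It stood at 5.08, 5.31 and 6.31 FPKM in CK tumors, at 5.66, 5.61 and 5.47 FPKM in PB-020 tumors, at 4.71, 5.37 and 5.93 FPKM in anti-PD-1 tumors and at 4.96, 5.72 and 5.26 FPKM in combination tumors. Every pair of groups overlapped. The largest estimated change in size among all 7 contrasts was −0.07 (combination against PB-020, 95% CI −0.33 to 0.18, adjusted p = 0.76). Strand use in the counting is not given in the sources used here, and 2 annotated Rb1 exons overlap Lpar6. If the counting ignored strand, reads of Lpar6 and of Rb1 in that shared stretch could not be told apart. Rb1, the retinoblastoma tumor suppressor gene, had group means of 10.2, 10.3, 11.3 and 10.5 FPKM in CK, PB-020, anti-PD-1 and combination tumors and was not called against CK in any group.

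Among the receptors, Lpar1 ranked first by FPKM in all CK and PB-020 tumors and in anti-PD-1 tumors 1 and 2, and Lpar6 ranked first in the other 4 tumors. Below them came Lpar2 and Lpar4, whose values overlapped in every group but anti-PD-1 and the combination, where the lowest Lpar2 tumor lay above the highest Lpar4 tumor. Lpar5 and then Lpar3 followed in every tumor. The 6 receptor genes summed to 19.5 ± 1.61 FPKM in CK, 18.2 ± 1.17 with PB-020, 15 ± 0.382 with anti-PD-1 and 14.8 ± 0.315 with the combination (SD, n = 3). Lpar1 made up 47.8% ± 5.61 of this sum in CK, 44.3% ± 2.47 with PB-020, 31.9% ± 5.55 with anti-PD-1 and 28.7% ± 1.95 with the combination. The share of Lpar6 was 28.7%, 30.7%, 35.6% and 35.8% in the same order. The ratio of Lpar1 to Lpar6 was 1.34 to 2.16 in CK and 1.29 to 1.67 in PB-020 tumors, 0.669 to 1.04 in anti-PD-1 and 0.747 to 0.867 in combination tumors. These shares follow from the Lpar1 values already given and are not a separate result.

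**Figure D3:**
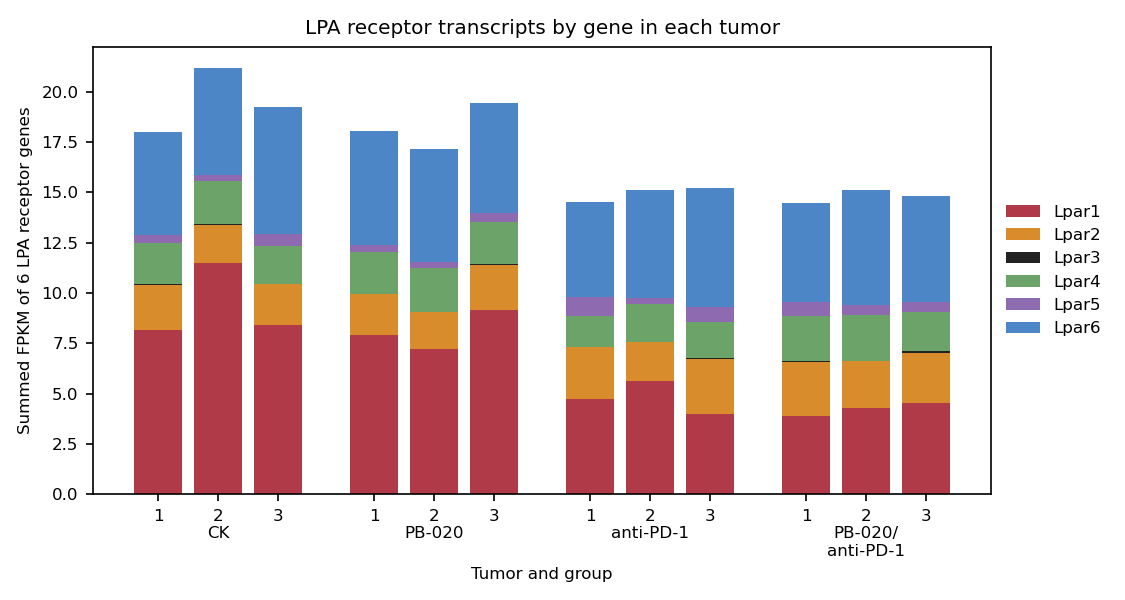
Stacked bars of FPKM of the 6 LPA receptor genes in each of the 12 tumors, ordered by group. The summed height is 17.1 to 21.2 FPKM in CK and PB-020 tumors and 14.5 to 15.2 FPKM in anti-PD-1 and combination tumors, and the Lpar1 segment accounts for most of that difference while the Lpar6 segment has a similar height in all bars.

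Enpp2, for autotaxin, stood at 1.34, 1.15 and 2.60 FPKM in CK tumors and at 1.17, 1.32 and 1.97 FPKM in PB-020 tumors. In anti-PD-1 tumors it stood at 2.17, 1.63 and 2.44 FPKM, and in combination tumors at 1.82, 2.76 and 1.59 FPKM. CK tumor 3, the tumor with high neutrophil and adipocyte marker sums, was the 1 CK tumor that reached into the range of the antibody groups, and adipocytes are a known source of autotaxin. Anti-PD-1 differed from CK by 0.31 (SE 0.31, 95% CI −0.37 to 0.99, adjusted p = 0.57), and the combination was 0.30 above CK (95% CI −0.38 to 0.98, described only). Both estimates leaned on single tumors. With 1 tumor left out at a time, the first ranged from 0.0911 (without CK tumor 2, adjusted p = 0.91) to 0.73 (without CK tumor 3, adjusted p = 0.15). The second ranged from 0.0191 (without combination tumor 2) to 0.73 (without CK tumor 3), and was 0.08 without CK tumor 2. Against PB-020, anti-PD-1 differed by 0.46 (SE 0.32, adjusted p = 0.42) and the combination by 0.45 (SE 0.32, adjusted p = 0.42). The part of CK tumor 3 and its adipocyte transcripts in these values was not tested.

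In the combination against PB-020, edgeR called none of the 5 members tested, against 3.35% of all genes. In the interaction it called none of the 5 members tested and 0 of all genes (0%), with 310 (2.29%) at an unadjusted p under 0.05 and 0 called by DESeq2. The tested members were at an unadjusted p of 0.05 or more in both, and DESeq2 called none of them in either.

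Levels of Lpar1 moved beside some fibroblast transcripts. The 9 fibroblast markers summed to 1639 to 2257 FPKM in CK, 1551 to 1600 with PB-020, 616 to 1170 with anti-PD-1 and 647 to 941 with the combination, so the antibody groups lay below the others as Lpar1 did. Most of that sum was Col3a1, a fibrillar collagen gene, which averaged 1349 ± 177, 1072 ± 24.2, 529 ± 182 and 452 ± 78.0 FPKM (SD, n = 3) in this order. With anti-PD-1 against CK, 4 of the 9 markers fell and none rose (8.26% of all genes called): Col3a1 by 1.33 (SE 0.22), the proteoglycan gene Dcn by 1.23 (SE 0.24), and the receptor genes Pdgfra by 0.59 (SE 0.11) and Pdgfrb by 0.35 (SE 0.08) on the log2 scale, with adjusted p of 0.0085 to 0.019. In the combination the same 4 fell, by 1.56, 1.21, 0.91 and 0.57, with adjusted p of 0.0012 to 0.0103 (17.9% of all genes called). The other 5 did not pass the test in either group, and 4 of them had estimates above 0 in both, namely Fap (0.47 and 0.24), Col1a1 (0.85 and 0.74), Dpt (0.72 and 0.87) and Lum (1.18 and 1.69), while Pi16 had −0.03 and −0.34. The estimates above 0 with anti-PD-1 rested on tumor 1, the tumor with the high muscle marker sum. It had 339.7 FPKM of Col1a1, whereas tumors 2 and 3 of that group had 60.4 and 98, and CK averaged 93.1. Without tumor 1 the anti-PD-1 changes were −0.20 for Col1a1, −0.29 for Dpt, −0.03 for Fap, 0.06 for Lum and −1.22 for Pi16, none of them called. Of the 4 markers that fell with anti-PD-1, Dcn was not called without tumor 1 (−1.28, adjusted p = 0.0622) and Pdgfrb was not called without CK tumor 3 (−0.29, adjusted p = 0.0580). Without anti-PD-1 tumor 1, Dpt and Lum were called as raised in the combination (0.87 and 1.69, adjusted p = 0.0291 and 0.0279). The part of fibroblast number in the Lpar1 level was not tested.

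**Figure D4:**
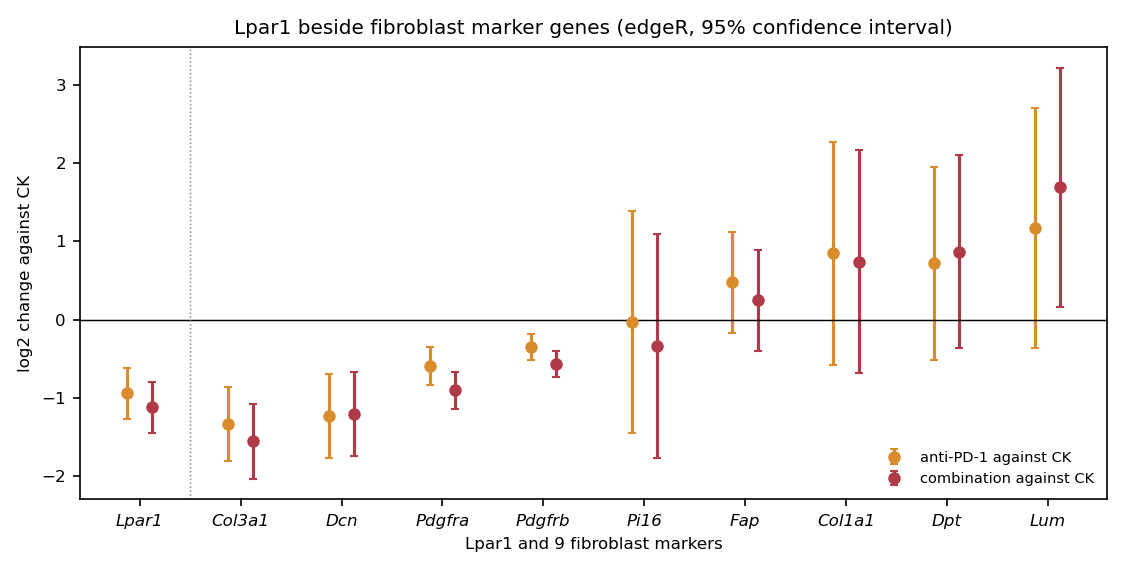
Log2 change against CK of Lpar1 and of 9 fibroblast marker genes from the edgeR model, for anti-PD-1 and the combination (points), with 95% confidence intervals (bars). Col3a1, Dcn, Pdgfra and Pdgfrb lie below 0 beside Lpar1, and Lum, Dpt, Col1a1 and Fap lie above 0 with wide intervals. Without anti-PD-1 tumor 1 the anti-PD-1 values of Dpt, Col1a1 and Fap are −0.29, −0.20 and −0.03.

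T cell transcripts moved the other way. The 6 T cell markers summed to 9.38 to 13.4 FPKM in CK, 13.1 to 17.6 with PB-020, 20.9 to 53.0 with anti-PD-1 and 26.1 to 42.7 with the combination, and 5 of the 6 rose with anti-PD-1 and with the combination against CK (4.18% and 8.35% of all genes tested were called raised). Anti-PD-1 tumor 1 held the top sum of its group, and the other 2 tumors were at 20.9 and 21.6 FPKM, still above all CK and PB-020 tumors. With anti-PD-1 3 of the 6 were called without tumor 1 and 1 without CK tumor 3. The median change of the 6 with anti-PD-1 was 1.47, and 0.90 without tumor 1. The 6 endothelial markers summed to 36.8 to 67.1 FPKM over all tumors. Their sums overlapped between every antibody group and CK, and none of the 6 was called. Of the single markers, Cdh5 was at 11.53 to 18.73 FPKM in CK and 8.24 to 10.83 in the combination, without overlap. For this pair 22.4% of all genes tested lay wholly below CK. The part of these shifts in the receptor levels was not tested.

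Over the 12 tumors, the genes whose log2 CPM (counts scaled to library size) was most like that of Lpar1 were Pink1, a mitochondrial kinase gene (Pearson r = 0.985), Tcp11l2 (0.980), the ER membrane GTPase gene Atl1 (0.980), the matrix gene Matn2 (0.978) and the actin-severing protein gene Gsn (0.976). Spearman's rank correlation was 0.951 to 0.993 for these 5, and r was 0.822 to 0.898 once group means were removed. The points share the libraries and the group difference, and 352 of 13557 genes had r over 0.9 with Lpar1, so many genes lay close together. Ranking by Spearman's rank correlation kept 2 of the 5 and removing group means kept 0. Gsn was at 506 to 637 FPKM in CK, 335 to 561 with PB-020, 152 to 318 with anti-PD-1 and 144 to 197 with the combination. For Enpp2 the nearest were the Wnt receptor gene Fzd6 (r = 0.914), Prdx5 (0.909), Pstpip1 (0.886), Plek (0.872) and Shroom3 (0.871), and 2 genes had r over 0.9. Within the family, Lpar1 and Lpar2 had r = −0.78 over the 12 tumors (−0.51 with group means removed), and Lpar1 and Lpar6 had r = 0.15.

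The other genes of LPA metabolism and signaling were taken as 6 lists of 61 genes, of which 60 were in the table and 56 were tested. With anti-PD-1 against CK 6 of the 56 rose and 2 fell (14.3%, against 8.26% of all genes). In the combination 6 rose and 8 fell (25%, against 17.9%). With PB-020 alone, anti-PD-1 against PB-020, and the combination against anti-PD-1, edgeR called 0, and DESeq2 called 1, 6 and 0. Against PB-020 the combination had 3 lowered, Plpp1, Agpat4 and Enpp3 (2.11% of all genes were called lowered). These counts leaned on single tumors. The anti-PD-1 count of 8 became 0 without CK tumor 2, 2 without anti-PD-1 tumor 3, 5 without CK tumor 1, CK tumor 3 or anti-PD-1 tumor 1, and 15 without anti-PD-1 tumor 2. The combination count of 14 became 5 without CK tumor 2, 6 without combination tumor 1 or 2, and 9 without CK tumor 3. The count of 3 against PB-020 became 0 without PB-020 tumor 1 or 3 or combination tumor 1 or 2, 1 without CK tumor 2, anti-PD-1 tumor 3 or combination tumor 3, and 6 without anti-PD-1 tumor 1.

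The gene with the lowest change was Enpp3, a relative of autotaxin that cleaves nucleotides and marks basophils and mast cells. It stood at 4.25, 7.99 and 5.87 FPKM in CK, 4.5, 4.33 and 3.85 with PB-020, 0.82, 2.10 and 0.60 with anti-PD-1 and 0.51, 0.70 and 0.97 with the combination. All antibody-treated tumors were thus below all others, as for 4.6% of genes tested. Enpp3 fell by 2.34 on the log2 scale with anti-PD-1 (SE 0.41, adjusted p = 0.0121) and by 3.03 in the combination (SE 0.43, adjusted p = 0.00308). It was the 1 called of 4 tested relatives of autotaxin in each contrast (25%, against 8.26% and 17.9% of all genes). The median change of these relatives was −0.22 and −0.10 (all genes tested 0.00 in both).

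Among the 6 tested genes listed under LPA synthesis was Pla1a, for a phospholipase that makes 2-acyl lysophospholipids. Pla1a rose by 0.77 with anti-PD-1 (SE 0.19, adjusted p = 0.0336) and by 0.90 in the combination (SE 0.19, adjusted p = 0.0103). Its FPKM was 6.95 to 11.92 in CK and 13.86 to 18.15 in the antibody groups. RNA levels do not show which lysophospholipid the enzyme made in these tumors. Pla2g6, a phospholipase A2, fell by 0.37 in the combination (adjusted p = 0.0308). Of this list 16.7% and 33.3% were called, against 8.26% and 17.9% of all genes, and its median change was −0.04 and −0.16. Among 9 genes of LPA breakdown and acylation, Plpp1, a surface phosphatase for LPA, fell by 0.45 and 0.46 (SE 0.11 in both, adjusted p = 0.0252 and 0.0126). In the combination the related phosphatase gene Plpp3 fell by 0.66 (adjusted p = 0.0400) and the acyltransferase gene Agpat4 by 0.41 (adjusted p = 0.00749). The median of the 9 was −0.02 and 0.01, and 8 of them with anti-PD-1 and 6 in the combination did not pass. The share called was 11.1% and 33.3%, against 8.26% and 17.9% of all genes. With anti-PD-1, Pla1a and Plpp1 were not called without anti-PD-1 tumor 1 (0.75 and −0.39, adjusted p = 0.0942 and 0.0646), nor Pla1a without CK tumor 3 (0.62, adjusted p = 0.0889). In the combination, Pla2g6 and Plpp3 were not called without CK tumor 3 (adjusted p = 0.11 and 0.0846).

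**Figure D5:**
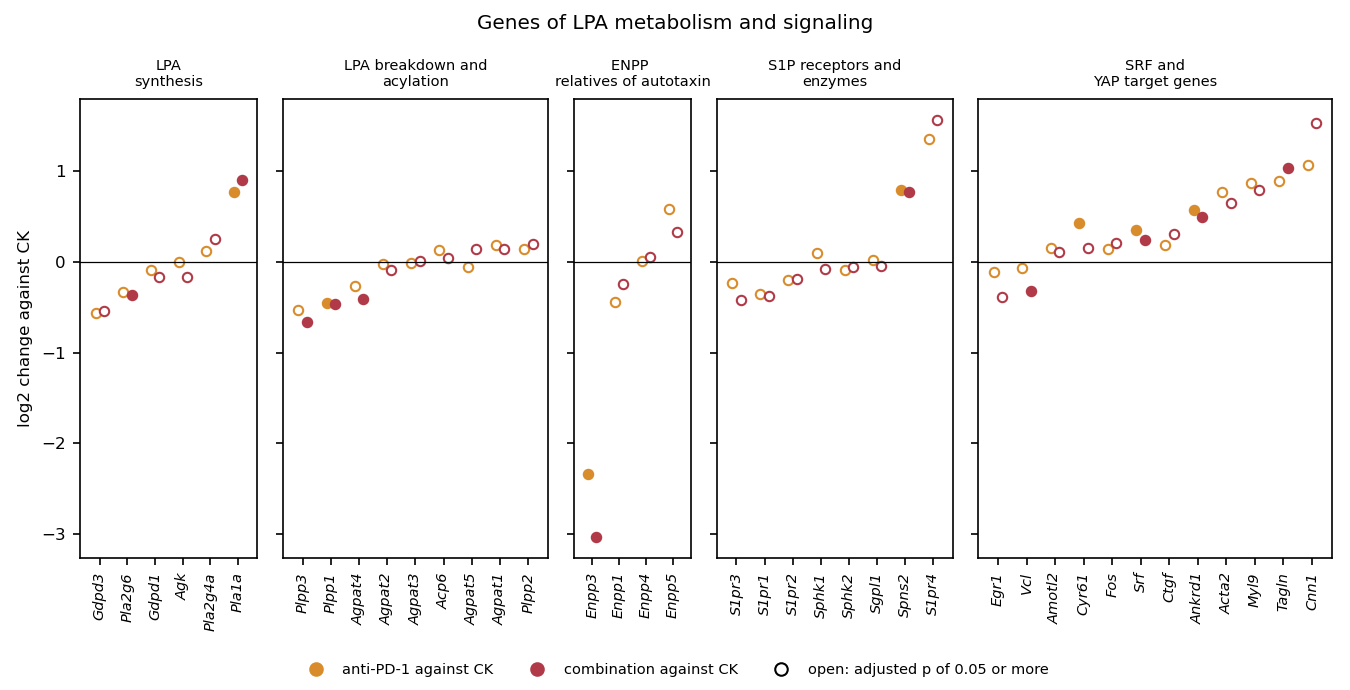
Log2 change against CK of the tested genes of 5 of the 6 lists, 1 panel per list on a shared linear scale, for anti-PD-1 and the combination (filled where the adjusted p was under 0.05, open otherwise). Enpp3 lies lowest at −2.34 and −3.03.

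Sphingosine 1-phosphate receptors are the nearest relatives of the Edg-type LPA receptors. Of 8 tested genes for these receptors and their enzymes 1 was called in each contrast (12.5%), whereas 8.26% and 17.9% of all genes were called. This was the transporter gene Spns2, which rose by 0.79 with anti-PD-1 and 0.77 in the combination (SE 0.20 in both, adjusted p = 0.0330 and 0.0218). It was at 3.11 to 4.93 FPKM in CK and 5.08 to 9.0 in the antibody groups, with the top value in anti-PD-1 tumor 1 and 5.08 and 5.90 in the others of that group. Without that tumor the anti-PD-1 change was 0.55 (adjusted p = 0.0753), and without CK tumor 3 the changes were 0.63 and 0.62 (adjusted p = 0.0865 and 0.0647).

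Of 12 SRF and YAP target genes 3 rose with anti-PD-1 and none fell (25% called, against 8.26% of all genes). Ankrd1, a YAP target, rose by 0.57 (adjusted p = 0.00998), the gene of SRF itself by 0.35 (adjusted p = 0.0118) and Cyr61 by 0.43 (adjusted p = 0.0367). In the combination Ankrd1 rose by 0.50 (adjusted p = 0.00873), Srf by 0.25 (adjusted p = 0.0258) and Tagln, a smooth muscle gene named here outside the rule for named genes, by 1.04 (adjusted p = 0.0451), and the focal adhesion gene Vcl fell by 0.32 (adjusted p = 0.0140). The share of the list called in the combination was 33.3%, against 17.9% of all genes. The median of the 12 was 0.39 and 0.27, beside 0.00 for all genes tested. Pericyte and smooth muscle markers, which share the gene Acta2 with this list, summed to 56.0 to 61.7 FPKM in CK, 57.3 to 113 in anti-PD-1 and 63.0 to 73.9 in combination tumors. The top sum was again that of anti-PD-1 tumor 1, with 57.3 and 73.1 FPKM in the other tumors of its group. Their part in these changes was not tested. Without anti-PD-1 tumor 1, Cyr61 was not called with anti-PD-1 (0.33, adjusted p = 0.10) and the median of the list was 0.23. Without CK tumor 3, Cyr61 was not called with anti-PD-1 (adjusted p = 0.0876), nor Srf and Tagln in the combination (adjusted p = 0.0646 and 0.0658).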

How the data were processed

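RNA from 12 MC38 tumors (4 groups of 3, assigned from the sample titles) was sequenced as pairs of 150 bases. Per the methods, the authors aligned reads with Bowtie2 and quantified genes with RSEM, naming mm10 or hg19 as reference; the submitters' processing notes name HISAT, Bowtie2 and GRCm38.p6. The authors deposited expected counts (estimated, not normalized, 91.0% whole), FPKM and TPM per gene and tumor. The deposited FPKM is scaled by length and library total, and the deposited TPM to a fixed total per library. Depth limits precision mainly for Lpar3 and Lpar5, which had few counts.

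Expected counts were rounded, filtered with filterByExpr (minimum count 10, 13563 of 18211 genes left), scaled by TMM and fitted with edgeR 4.0.16 (robust quasi-likelihood, 4 group means, all 12 libraries, two-sided, Benjamini-Hochberg) in R 4.3.3. The methods name a per-gene test on FPKM; a count model replaced it, and their thresholds served as a second rule. Log2 CPM used a prior count of 2. Alternatives were DESeq2 1.42.0, limma 3.58.1 on log2(FPKM + 1) and log2(FPKM + 0.1), no filter, a strict filter (50 counts in 3 libraries), library size scaling, the replicate number as a block, only the groups compared, each library left out, and TPM. The members and lists were chosen with earlier results of these data known. Named are the members, Rb1, up to 3 raised and 3 lowered called genes per list by p, the 5 genes most like Lpar1 and Enpp2, and markers that moved with a member. The genes of 1 list are counted but not reported singly here. The fit was tested on simulated counts. P-values measure the spread between these tumors.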

Additional observations from a re-analysis of the deposited data

How the results depend on the processing

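Of the tested log2 changes of members under other settings, 240 kept their direction and side of the threshold and 10 changed sign, and the adjusted p of Lpar1 crossed the threshold with DESeq2, with no filter and with only the groups compared, as given above. With a library left out, 359 kept both and 35 changed sign. Of the changes that are described only, 70 of 70 kept their sign under other settings, and 103 kept it and 5 changed it with a library left out. Counts of genes called moved as follows. With DESeq2, PB-020 against CK had 6 genes and 1 pathway gene, anti-PD-1 against CK 13 pathway genes, anti-PD-1 against PB-020 689 genes, 1 member and 6 pathway genes, the combination against anti-PD-1 1 gene, and the combination against PB-020 1109 genes and 6 pathway genes. With only the groups compared, anti-PD-1 against CK had 3 genes, 0 members and 0 pathway genes, anti-PD-1 against PB-020 3 genes, and the combination against PB-020 1535 genes and 8 pathway genes. Anti-PD-1 against PB-020 had 0 genes by limma on log2(FPKM + 1), 4 on log2(FPKM + 0.1), 42 genes and 1 member with no filter, and 2 with library size alone. The cause was not tested.

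The nearest 5 genes shared with the main ranking were 2 for Lpar1 and 2 for Enpp2 by Spearman's rank correlation, and 0 and 2 with group means removed. Changes near 0 that turned sign were Lpar2 with PB-020 (−0.0018, −0.0028 and −0.0015 with both limma scales and library size) and Lpar6 in the combination against anti-PD-1 (0.0005 strict filter, 0.0006 only the groups compared). Lpar5 turned sign by more between counts and FPKM. With PB-020 it was 0.14 from counts, and −0.0798 and −0.215 with limma on FPKM. In the interaction it was −0.24 from counts, and 0.0244 and 0.157 with limma.

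No pairing of tumors by replicate number was seen, though so few tumors cannot exclude it. Of 18 same-number pairs the median correlation of deviations was −0.037, 2 were over 0.1, and 3 of 12 libraries correlated best with their own number. With the replicate block, Lpar1 in anti-PD-1 against CK was −0.94 (adjusted p = 0.00923), anti-PD-1 against PB-020 had 61 genes, the combination against PB-020 1 pathway gene, and Enpp2 in the combination against anti-PD-1 was 0.0276.

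Leaving out each library gave, for genes called, 0 to 2 (PB-020 against CK), 137 to 1905 (anti-PD-1 against CK), 864 to 3344 (combination against CK), 0 to 993 (anti-PD-1 against PB-020), 0 to 2 (combination against anti-PD-1), 0 to 1269 (combination against PB-020) and 0 to 1 (interaction). They moved by over 1.5 times without CK tumor 2 or 3 or any anti-PD-1 tumor (anti-PD-1 against CK), CK tumor 2 or 3 or combination tumor 1 or 2 (combination against CK), any of the 12 (anti-PD-1 against PB-020), and CK tumor 1, PB-020 tumor 1 or 3, anti-PD-1 tumor 1 or 2 or any combination tumor (combination against PB-020). The low ends were without CK tumor 2 for both contrasts with CK, without anti-PD-1 tumor 3 (anti-PD-1 against PB-020) and without combination tumor 1 (combination against PB-020), and the high ends of anti-PD-1 against CK and against PB-020 were without anti-PD-1 tumor 2. Pathway genes called were 0 to 15 (anti-PD-1 against CK), 5 to 19 (combination against CK), 0 to 7 (anti-PD-1 against PB-020) and 0 to 6 (combination against PB-020), and members called in anti-PD-1 against PB-020 were 0 to 1. Log2 changes that turned sign ranged, with PB-020 against CK, from −0.0616 to 0.104 (Lpar2), −0.0311 to 0.112 (Lpar6) and −0.40 to 0.26 (Enpp2). With anti-PD-1 against CK they ranged from −0.0851 to 0.704 (Lpar5) and −0.137 to 0.0509 (Lpar6), and against PB-020 from −0.22 to 0.57 (Lpar5) and −0.158 to 0.0246 (Lpar6). The combination against anti-PD-1 gave −0.0686 to 0.177 (Lpar2), −0.37 to 0.42 (Lpar5), −0.0979 to 0.0906 (Lpar6) and −0.28 to 0.15 (Enpp2), and against PB-020 −0.0318 to 0.0817 (Lpar4). The combination against CK gave −0.108 to 0.049 (Lpar6, described). The interaction gave −0.162 to 0.166 (Lpar1, described), −0.085 to 0.161 (Lpar2), −0.50 to 0.28 (Lpar5), −0.124 to 0.0693 (Lpar6) and −0.26 to 0.39 (Enpp2).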

Other observations

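Ankrd1, a YAP target gene of the signaling lists, was the pathway gene with the smallest p in PB-020 against CK, and it is named there after its values were seen. It stood at 84.1, 69.0 and 82.4 FPKM in CK tumors, 102.6, 130.0 and 107.4 FPKM in PB-020 tumors, 104.5, 113.9 and 126.0 FPKM in anti-PD-1 tumors and 115.4, 110.4 and 101.9 FPKM in combination tumors, so every treated tumor lay above every CK tumor, as for 1.56% of all genes tested. With PB-020 the difference was 0.55 on the log2 scale (SE 0.11, unadjusted p = 0.000154), which did not pass the adjustment over all genes (edgeR adjusted p = 0.52).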
